A study of Mus musculus with 15 samples.

Results

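The genes described here encode small leucine-rich proteoglycans, chondroitin sulfate proteoglycans of brain and their binding partners, 10 genes of the 44260 in the deposited table: Podn, Dcn, Lum, Vcan, Ncan, Bcan, Cspg5, Tnc, Ptprz1 and Hapln1. They were chosen by name for their family and not by a threshold, with the Spret against B6 ratios of this same table already known, so the ratios below are a description of genes selected on these values and not support for any pattern among them. The question put to each gene is whether its transcripts come equally from its C57BL/6J (B6) and its Mus spretus (Spret) copy. The material was day 12 organoids grown from SpretB6 epiblast stem cell lines, which model the cerebral cortex and hold a B6 and a Spret genome in the same nuclei. There were 3 libraries, titled SpretB6_C1 to SpretB6_C3, with no treatment named in the labels and no organoid library of a line without the Spret genome. Age of the culture is the day in the name of the table, since the tissue label names epiblast stem cells. Nothing in the labels says whether the organoids of the 3 libraries were grown on separate days. The spread behind every p-value here therefore comes from 3 libraries and could be in part technical. In limma, the test used below, it was drawn mostly from other genes of like level (12.3 prior against 2 residual degrees of freedom). The 12 induced pluripotent stem cell samples of the series were not analysed here.

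Brain matrix is poor in fibrous collagen and rich in hyaluronan, a long sugar polymer. Lecticans (versican, neurocan and brevican, the products of Vcan, Ncan and Bcan) bind hyaluronan through one end, a bond that link proteins such as Hapln1 stabilise, and bind tenascins through the other. In the developing cortex radial glia are known for Tnc and for Ptprz1, a receptor tyrosine phosphatase that carries chondroitin sulfate chains and whose secreted form is phosphacan. Podn, Dcn and Lum belong to the small leucine-rich proteoglycans, which are best known from connective tissue, where decorin and lumican regulate collagen fibrils.

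For each gene a library gave 1 value per allele, a normalised read number as deposited. Library sums over both alleles were 5039845, 4502664 and 5666990. By the scale factors estimated from the values, about 2.34M, 1.89M and 4.51M reads from B6 and 2.02M, 1.64M and 3.93M from Spret lay behind them, so library 3 was the deepest. A ratio is the log2 of Spret over B6 after adding 1 to each value, a scale on which differences of low genes look smaller than they are. The Spret share was 47.7% ± 0.136 of autosomal values (SD, n = 3), 0.0930% ± 0.00747 of X-linked values and 99.5% ± 0.280 of Y-linked values. Without libraries of the reverse cross, strain and parent of origin cannot be told apart. Of 15456 tested autosomal genes, 28.4% were called, meaning an adjusted p under 0.05 for the difference between alleles in limma. Called higher from Spret were 7.78% and higher from B6 20.7% of the tested autosomal genes. Their median log2 ratio was -0.13 with quartiles of -0.42 and 0.13. Removing each library's own shift of -0.13, -0.13 and -0.12 brought calls to 26.8%, with 13.3% higher from Spret and 13.5% from B6. A ratio near -0.13 is therefore the middle of this table.

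Podn and Dcn gave every Spret value above every B6 value, as 6.96% of tested autosomal genes did, while 16.8% had every B6 value on top. Tnc was higher from Spret in each of the 3 libraries by nearly the same ratio, and the abundant lecticans lay close to equal shares. Tested were 8 of the 10 genes, those whose 6 values averaged 10 or more. Of these, 4 were called, against 28.4% of tested autosomal genes. Higher from Spret were Podn, Dcn and Tnc (7.78% of autosomal genes), and higher from B6 was Ncan (20.7%). Since the genes were listed with their ratios known, nothing is read from these shares. With centred ratios 4 were called again, all higher from Spret, with Ptprz1 gained (adjusted p = 0.00255 by limma) and Ncan lost (adjusted p = 0.580). The genes outside the filter were Hapln1 and Lum, with averages of 7.17 and 5, and the lowest inside it was Bcan at 48.7.

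**Figure D1:**
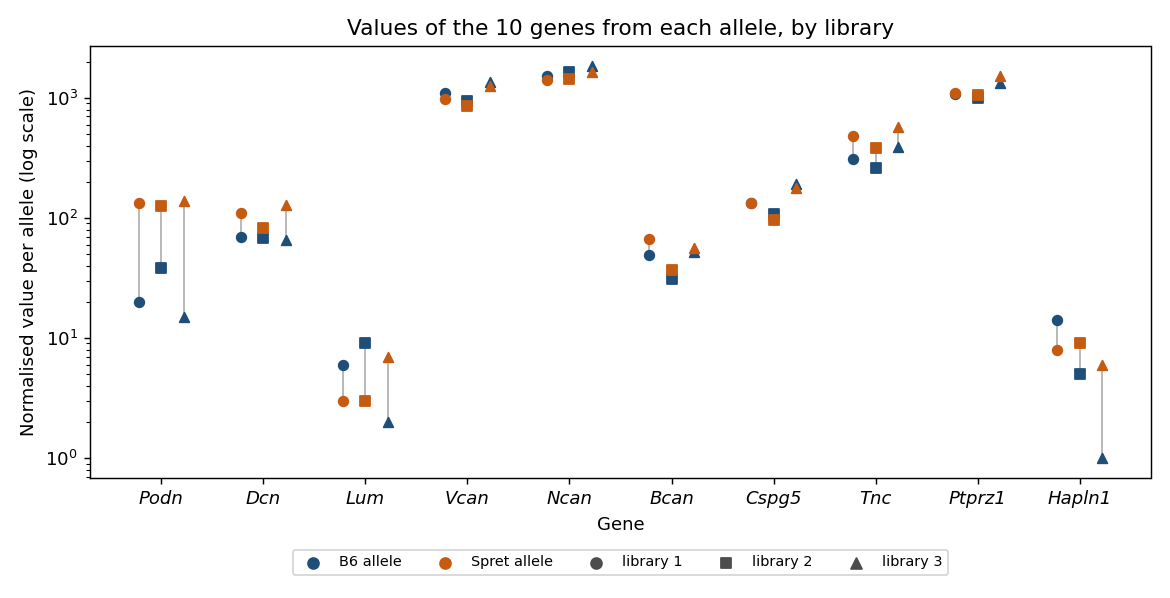
Normalised value of each of the 10 genes (log axis) from the B6 allele (blue) and the Spret allele (orange), with 1 pair of joined points per library and a symbol per library. Podn is the gene with the widest gap that points one way in every library, from 15 to 38 on B6 and from 126 to 138 on Spret, while Vcan, Ncan and Ptprz1 sit between 855 and 1859 with both alleles close together.

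Among the small leucine-rich proteoglycans, Podn encodes podocan, a secreted protein of the extracellular matrix that binds collagen. It lies on the minus strand of chromosome 4 (108014791 to 108096445, mm10). The B6 allele read 20, 38 and 15 in libraries 1, 2 and 3, and the Spret allele read 132, 126 and 138. The groups did not overlap. Spret held 86.8%, 76.8% and 90.2% of the Podn value, a mean of 84.6% ± 6.95 (SD, n = 3). The log2 ratio was 2.50 ± 0.24 (SE, limma adjusted p = 1.14e-06), a 5.64-fold difference that exceeded the ratio of 99.8% of tested autosomal genes. At least a 2-fold difference in either direction was found in 7.83% of those genes. The ratio differed between libraries, at 2.66, 1.70 and 3.12, and most of that came from the B6 side, where about 17.3, 29.8 and 22.3 reads were behind the values. With no filter on low values the call ended (limma adjusted p = 0.0625), while the other alternatives kept it.

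The B6 values of Podn were highest in library 2 and lowest in library 3, and its Spret values ran in the reverse order. Markers of mesenchyme and meninges, 15 genes of which 7 had a mean of at least 10, summed to 380, 451 and 301 in libraries 1, 2 and 3. Of the 15, 9 had the order of the B6 values, and others did not, such as the receptor gene Pdgfra at 94, 58 and 80. That order was chosen from the B6 values of Podn, and its share over all genes was not measured. Of cortical neuron markers 4 of 10 had it, of oligodendrocyte precursors 3 of 8, of dorsal forebrain progenitors 1 of 12 and of intermediate progenitors 1 of 6. No astrocyte or hem and choroid plexus marker had it. Col1a1, the collagen chain that marks fibroblasts, read 49, 59 and 37 over both alleles. Podn read 152, 164 and 153 over both alleles, which is not that order. These values are not corrected for exon length or for the variants each gene holds, so they do not rank the genes. Endothelial markers (6 genes, 141, 176 and 65) and markers of microglia and blood (6 genes, 100, 188 and 85) had the order of the B6 values of Podn in their sums. In each list 3 genes had it, while Kdr, the endothelial marker with the highest sum, read 65, 43 and 18. No gene of these lists was at 0 in every library, though Cldn5 read 0, 4 and 2 and C1qa 1, 7 and 3. A mean of at least 10 was reached by 3 of the endothelial genes and 2 of the microglia and blood genes. The part of such cells in the Podn ratio was not tested. In RNA from whole organoids, fewer cells of a type and less RNA per cell cannot be told apart.

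The genes around Podn had lower ratios. Of 14 tested genes within 500 kb of it, 4 were called by limma, beside 28.4% of tested autosomal genes. Each of the 4 had more from B6, the more common direction of calls in this table (20.7% against 7.78%). The 14 ratios ran from -1.54 to 0.40 with a median of -0.17, beside an autosomal median of -0.13. The nearest tested genes were Scp2, a sterol carrier protein whose annotated span overlaps that of Podn without sharing exon bases, at 0.13 ± 0.14 (SE), and Cpt2, a carnitine palmitoyltransferase 91.2 kb away, at 0.40 ± 0.24. Neither was called (adjusted p = 0.520 and 0.231). Echdc2, whose start lies 69.0 kb from that of Podn, leaned the other way at -1.54 ± 0.25 (limma adjusted p = 0.000265). This gene was picked after its value was seen.

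The reference sequence before the transcription starts of Podn, Tnc and Ncan is shown because these genes were called by limma and had a RefSeq promoter window. Of these, Ncan lay near the autosomal median and lost its call with centred ratios. All of it is C57BL/6J sequence, hence the B6 allele, and the Spret sequence was not used here. Each line gives the 250 bases that end at the base before a RefSeq start (GRCm38.p6, the assembly of mm10), 5′ to 3′ on the strand of the gene. Capitals mark matches on either strand to TATAAA, the TATA box, to GGGCGG, a GC box, or to CCAAT.
Podn, second start, chr4:108030987-108031236, minus strand: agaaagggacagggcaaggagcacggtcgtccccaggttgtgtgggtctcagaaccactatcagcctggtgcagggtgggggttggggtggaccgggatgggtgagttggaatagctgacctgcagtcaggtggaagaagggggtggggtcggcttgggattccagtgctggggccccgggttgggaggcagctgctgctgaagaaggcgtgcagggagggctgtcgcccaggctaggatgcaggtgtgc
Tnc, first start, chr4:64047016-64047265, minus strand: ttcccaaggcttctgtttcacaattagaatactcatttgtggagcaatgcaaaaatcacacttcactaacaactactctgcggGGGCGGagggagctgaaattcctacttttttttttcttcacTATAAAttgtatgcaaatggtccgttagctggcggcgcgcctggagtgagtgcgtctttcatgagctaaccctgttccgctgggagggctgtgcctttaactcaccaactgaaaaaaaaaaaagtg
Ncan, chr8:70120845-70121094, minus strand: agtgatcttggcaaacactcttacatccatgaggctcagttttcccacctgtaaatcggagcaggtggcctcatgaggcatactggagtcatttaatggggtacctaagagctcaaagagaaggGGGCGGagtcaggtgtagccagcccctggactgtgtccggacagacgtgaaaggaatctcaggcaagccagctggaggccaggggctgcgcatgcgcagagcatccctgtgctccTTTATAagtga
Podn has 2 RefSeq starts. The window before the second, printed above, held none of the 3 motifs and 7 CpG dinucleotides, near the median of 6 over 32851 windows of that length. The window before the first held 32 CpG dinucleotides, more than 95.4% of windows, and 2 GC boxes. Ncan had a TATAAA match on the opposite strand that begins 11 bases before the start. Tnc had a TATAAA match that begins 126 bases before its first start, a match found somewhere in 12.4% of windows. Before its second RefSeq start, whose window is not printed, the same Tnc match begins 205 bases away. GGGCGG occurred in the windows of Tnc and Ncan and in 32.7% of all windows, and CCAAT, in neither, in 33.8%. The values of an allele are not split by start, so these windows describe the genes and not the difference. Windows were held for 7 of the 10 genes, and not for Dcn, Lum and Cspg5.

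Dcn encodes decorin, which binds collagen fibrils and the growth factor TGF-beta, and lies on chromosome 10 (97479609 to 97518143, plus strand). It read 70, 68 and 65 from B6 and 110, 82 and 129 from Spret. The B6 values were within 5 units of each other and the Spret values carried the spread, with no overlap between alleles. The log2 ratio was 0.63 ± 0.16 (SE, limma adjusted p = 0.00931), and the Spret share 60.8% ± 5.92 (SD, n = 3). The ratio was 0.64, 0.27 and 0.98 in libraries 1, 2 and 3. It lost its call without library 1 (adjusted p = 0.0930), without library 3 (0.142), with no filter (0.176), when alleles were not paired (0.105) and in limma with no trend (0.0910). Relative to library totals the level of Dcn was 35.7, 33.3 and 34.2 per M of summed values in libraries 1, 2 and 3. The sum of the mesenchyme list was 75.4, 100.2 and 53.1 per M, and the values of 9 of its 15 genes had that order. The part of such cells in the level or the ratio of Dcn was not tested.

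Lum, which encodes the keratan sulfate proteoglycan lumican of cornea and other connective tissue, lies 47.0 kb from Dcn on the same strand, followed by Kera and Epyc, further members of the family, at gaps of 34.2 and 30.4 kb. It read 6, 9 and 2 from B6 and 3, 3 and 7 from Spret, values that cross in direction between libraries and rest on about 10.4 reads or fewer in each of them. Kera read at most 4 and Epyc at most 6 in any column. Within this cluster Dcn alone had values high enough to test, so whether its neighbours share its lean could not be measured at this depth. The nearest tested genes outside the cluster were Btg1, an antiproliferative gene 857 kb away, at -0.46 ± 0.13 (SE, limma adjusted p = 0.0123), and Atp2b1, a calcium pump of the plasma membrane, at -0.02 ± 0.06, 1396 kb from Dcn. Btg1 lost its call with centred ratios (limma adjusted p = 0.0576), without library 1 (0.127) and without library 3 (0.0875). The call of Btg1 also ended with no filter (0.122), with no trend (0.0800) and when alleles were not paired (0.246).

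**Figure D2:**
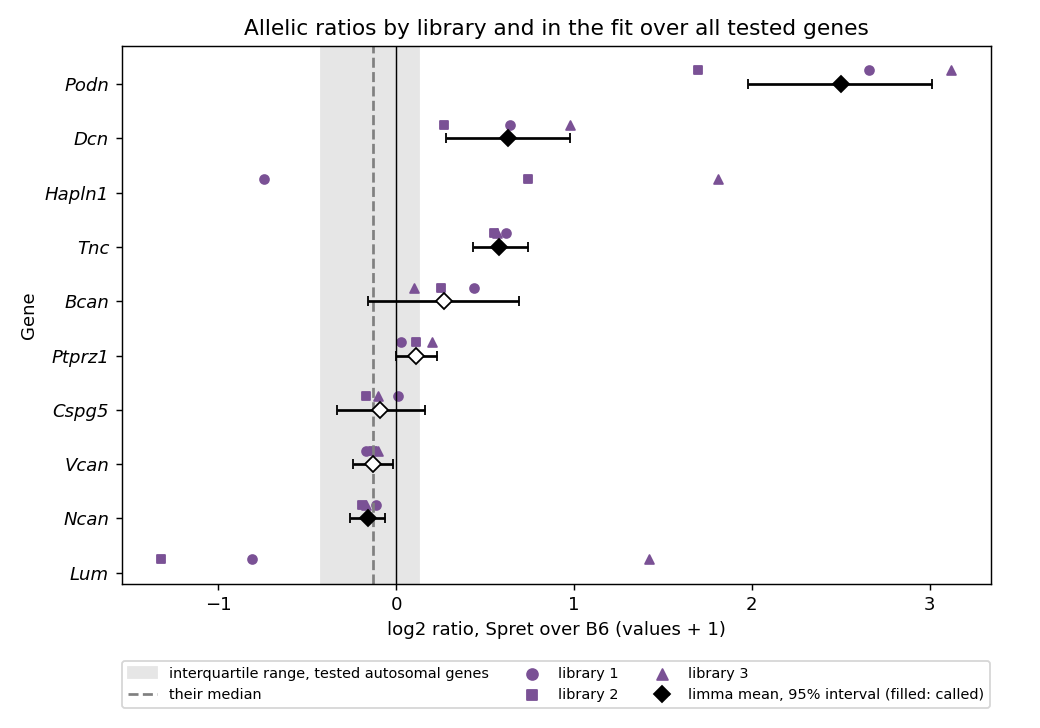
Log2 ratio of Spret over B6 for each of the 10 genes, with small symbols for libraries 1 to 3 and diamonds for the limma estimate with its 95% interval, unadjusted, in the 8 tested genes. The grey band spans the quartiles of tested autosomal genes, -0.42 to 0.13, and the dashed line their median. Podn, Dcn and Tnc lie right of the band with their whole interval, and Lum and Hapln1, which were not tested, scatter on both sides of 0.

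Tnc, the gene of tenascin-C, a glycoprotein of the radial glial niche that binds lecticans and Ptprz1, was higher from Spret by amounts that varied little between libraries. It lies on the minus strand of chromosome 4 (63959785 to 64047015). It read 311, 260 and 387 from B6 and 478, 382 and 575 from Spret. Library 3 was the highest and library 2 the lowest on either allele, so the alleles overlap when libraries are pooled, but within each library Spret was higher. The ratios were 0.62, 0.55 and 0.57, and the Spret share 60.0% ± 0.563 (SD, n = 3). In the fit the log2 ratio was 0.58 ± 0.07 (SE, limma adjusted p = 2.08e-05), higher than in 93.7% of tested autosomal genes. The call ended only when the pairing of alleles within a library was dropped (adjusted p = 0.110).

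An annotated transcript on the other strand, 8030451A03Rik, shares 176 bases of exon with Tnc, 2.26% of its exon length. It read between 18 and 29 in the 6 columns with a ratio of 0.15 ± 0.26 (SE, limma adjusted p = 0.721). Since the sources used here do not say whether counting used strand, reads of the shared bases cannot be told apart. The part of this transcript in the Tnc ratio was not tested. Of 4 tested genes within 500 kb of Tnc, 1 was called, beside 28.4% of tested autosomal genes. This was Atp6v1g1, a subunit of the proton pump of vesicles, at -0.57 ± 0.08 toward B6 (limma adjusted p = 7.77e-05). It was picked after its value was seen.

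Ptprz1, on chromosome 6 (22875502 to 23052916, plus strand), read 1075, 989 and 1334 from B6 and 1100, 1067 and 1535 from Spret. Spret was higher in 3 of 3 libraries by small amounts, with ratios of 0.03, 0.11 and 0.20. The log2 ratio of 0.11 ± 0.05 (SE) was not called (limma adjusted p = 0.106, unadjusted 95% interval 0.00 to 0.23). It lies above the autosomal median, and with centred ratios it was 0.24 and called. Its nearest tested neighbour toward higher coordinates, Cadps2, a regulator of dense-core vesicle release 210 kb away, was higher from Spret at 1.52 ± 0.26 (limma adjusted p = 0.000426), with 30, 31 and 15 from B6 and 60, 75 and 79 from Spret. The call of Cadps2 ended with no filter (limma adjusted p = 0.135).

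The lecticans of high level were near the middle of the table. Ncan, on chromosome 8 (70093085 to 70120873, minus strand), encodes neurocan, a lectican of the nervous system that binds neural adhesion molecules. It read 1523, 1646 and 1859 from B6 and 1409, 1438 and 1647 from Spret. B6 was higher in 3 of 3 libraries, though the alleles overlap across libraries. The log2 ratio was -0.16 ± 0.04 (SE, limma adjusted p = 0.0138) and the Spret share 47.2% ± 0.744 (SD, n = 3). Its percentile among autosomal ratios was 46.6, and with centred ratios the value was -0.04 and not called. The call also ended without library 2 (adjusted p = 0.0879), without library 3 (0.0721), with no trend (0.344), with no filter (0.106) and when alleles were not paired (0.612).

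Vcan, on chromosome 13 (89655312 to 89742509, minus strand), encodes versican, a large lectican of embryonic matrix. It read 1098, 933 and 1350 from B6 and 979, 855 and 1256 from Spret, with B6 higher in each library. The ratio of -0.13 ± 0.05 (SE) was not called (limma adjusted p = 0.0598, unadjusted 95% interval -0.24 to -0.02), and it equals the autosomal median at the precision given. When genes of mean at least 50 were tested alone it was called (adjusted p = 0.0469). Gm4117, a transcript annotated as antisense whose span overlaps one end of that of Vcan without sharing exon bases, leaned more to B6, at -0.95 ± 0.20 (SE, limma adjusted p = 0.00272). The next tested gene, Edil3, an integrin ligand of the matrix, was also higher from B6 at -0.46 ± 0.07 (limma adjusted p = 0.000261). The calls of Gm4117 and Edil3 each ended with no filter, with no trend and when alleles were not paired (limma adjusted p from 0.0505 to 0.298).

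Bcan, on chromosome 3 (87987531 to 88000230, minus strand), encodes brevican, known from mature glia and the matrix around synapses. It read 49, 31 and 52 from B6 and 67, 37 and 56 from Spret, higher from Spret in 3 of 3 libraries. The ratio of 0.27 ± 0.20 (SE) was not called (limma adjusted p = 0.339), and its unadjusted 95% interval of -0.16 to 0.69 leaves room for differences in either direction. Cspg5, on chromosome 9 (110243783 to 110262576, plus strand), encodes neuroglycan C, a transmembrane proteoglycan of neurons. It read 132, 108 and 192 from B6 and 133, 96 and 179 from Spret. Neither allele led in all libraries, and the log2 ratio was -0.09 ± 0.12 (SE, limma adjusted p = 0.616, unadjusted 95% interval -0.33 to 0.16). With centred ratios its sign turned, to 0.04.

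Each lectican gene in the mouse genome lies beside the gene of a link protein, and the pairs could be set side by side. Hapln1, the partner of Vcan at a gap of 43.7 kb, read 14, 5 and 1 from B6 and 8, 9 and 6 from Spret, too low to test. Hapln2, known from nodes of myelinated axons, lies 21.5 kb from Bcan and read 5, 4 and 3 from B6 against 30, 19 and 26 from Spret. Its alleles did not overlap, and the log2 ratio of 2.37 ± 0.37 (SE, limma adjusted p = 0.000178) stands beside 0.27 for Bcan, with no test of the difference between the genes. Nes, the intermediate filament gene of neural progenitors on the other side of Bcan at 7.08 kb, was at -0.17 ± 0.08 (limma adjusted p = 0.141). Hapln4, 2.22 kb from Ncan, read 3, 18 and 15 from B6 and 16, 19 and 17 from Spret, for a ratio of 0.78 ± 0.41 that was not called (limma adjusted p = 0.174) and was 0.12 without library 1. Acan, the lectican of cartilage, read 2, 26 and 8 from B6 and 1, 14 and 7 from Spret, and its partner Hapln3 read 8, 13 and 7 from B6 and 6, 5 and 7 from Spret, with neither tested.

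The nearest tested genes on either side of the 10 genes, 16 apart from the genes themselves, included 5 with a call, of which 3 had more from B6 and 2 more from Spret, beside 28.4% of tested autosomal genes. Those beside Cspg5 were Smarcc1, a subunit of a chromatin remodelling complex, at 0.03 ± 0.06 (SE), and Elp6, of the elongator complex, at 0.27 ± 0.22. Rfxank, a transcriptional cofactor beside Ncan, was at 0.15 ± 0.17, Tmem268 beside Tnc at 0.08 ± 0.32 and Fam3c, a secreted factor beside Ptprz1, at 0.02 ± 0.11. None of these was called, with limma adjusted p-values from 0.370 to 0.935.

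**Figure D3:**
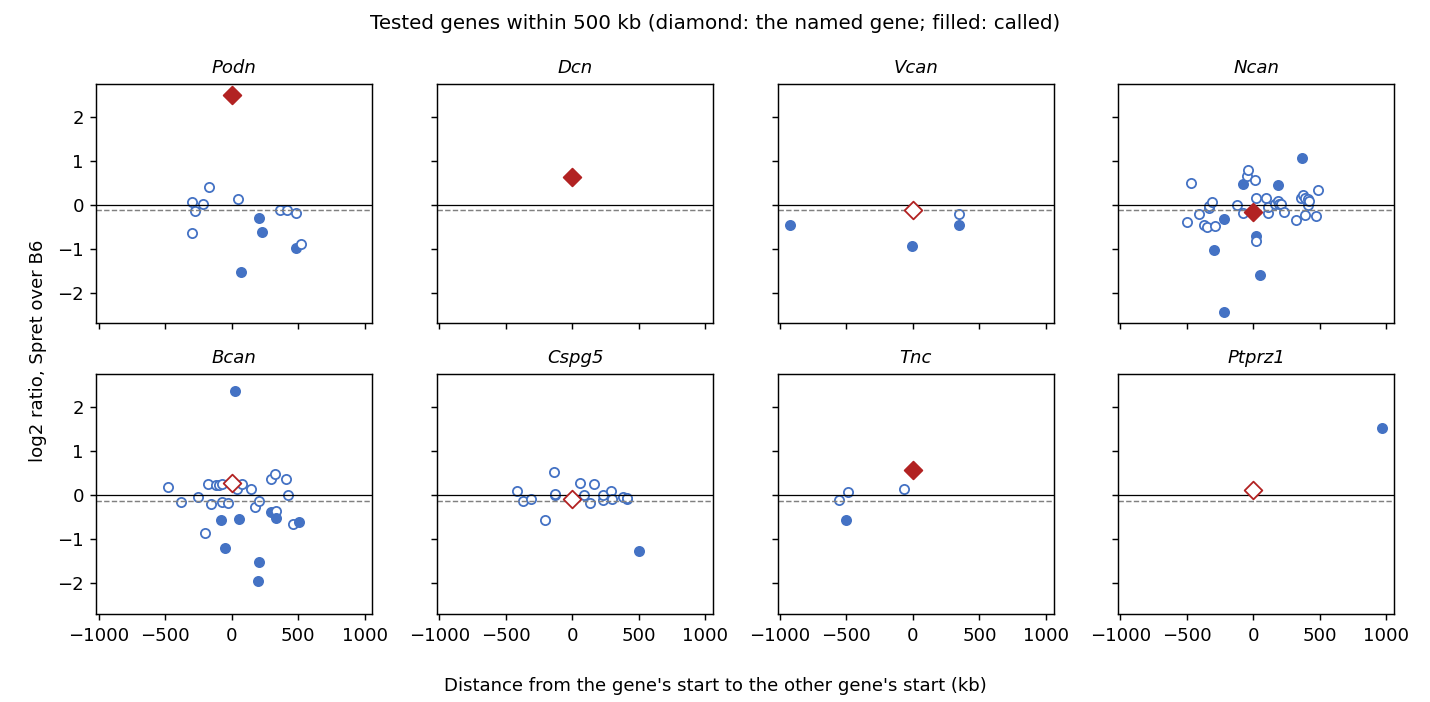
Log2 ratio of each tested gene within 500 kb (edge to edge) of the 8 tested genes, against the distance between gene starts in kb, with the named gene as a red diamond at 0 and called genes filled. Podn sits at 2.50 above 14 genes that reach at most 0.40, Hapln2 sits at 2.37 beside Bcan at 0.27, and no other tested gene lies within 500 kb of Dcn.

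The genes spanned a wide range of levels. Summed over both alleles and divided by annotated exon length, Ncan was the highest in each library at 441.1 ± 41.3 normalised value per kb (SD, n = 3). Ptprz1 followed at 166 ± 30.8, Vcan at 149 ± 28.7 and Tnc at 103 ± 20.6. The ranges of Ptprz1, 144 to 201, and of Vcan, 124 to 180, overlap, although Ptprz1 was above Vcan within each library. Podn at 36.6 ± 1.56, Dcn at 29.9 ± 3.85, Cspg5 at 27.8 ± 8.39 and Bcan at 23.9 ± 6.33 lay close together and changed places between libraries. Lum at 4.08 ± 0.708 and Hapln1 at 2.43 ± 1.27 were lowest. Reads enter only where a variant assigns them to an allele, so the order also depends on how many variants each gene holds, which was not measured here.

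Between libraries, the summed values of Tnc, Ptprz1, Vcan, Cspg5, Ncan and Dcn were highest in library 3. Per M of the library total, Tnc stood at 157, 143 and 170, Ptprz1 at 432, 457 and 506, Vcan at 412, 397 and 460, and Cspg5 at 52.6, 45.3 and 65.5 in libraries 1, 2 and 3. On this scale Ncan, at 582, 685 and 619, and Dcn, at 35.7, 33.3 and 34.2, were not highest in library 3. Dorsal forebrain progenitor markers (12 genes) went from 1531 to 1432 and 1319 per M, cortical neuron markers (10 genes) from 4680 to 5287 and 4302, and astrocyte markers (7 genes, mostly from the glutamate transporter gene Slc1a2) from 259 to 275 and 317. Markers of oligodendrocyte precursors (8 genes) stayed at 60.9, 56.0 and 57.2 per M, those of intermediate progenitors (6 genes) went from 603 to 543 and 439, and those of cortical hem and choroid plexus (11 genes) went from 762 to 244 and 129. The part of these cell types in the levels was not tested.

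**Figure D4:**
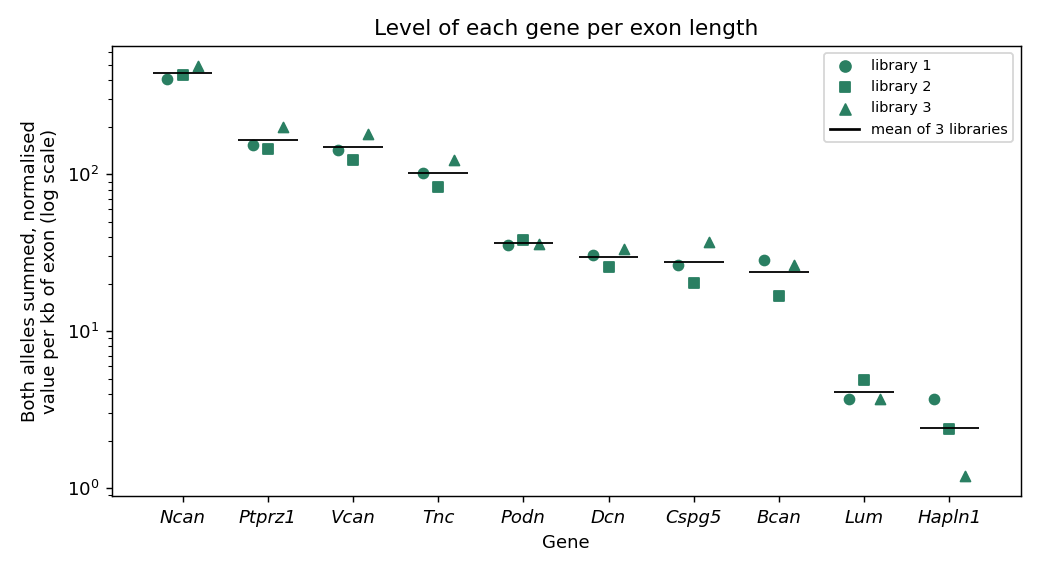
Level of each of the 10 genes as the sum of both alleles per kb of annotated exon (log axis), with a symbol per library and a line at the mean of the 3 libraries. Ncan lies highest at 441.1 and Lum and Hapln1 lowest, at 4.08 and 2.43.

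Genes that make, bind, remodel and degrade these matrix molecules were compared from 8 lists. Apart from the 10 genes, the lists held 101 tested autosomal genes, of which 28 were called, 27.7% against 28.4% of all tested autosomal genes. Higher from Spret were 9 and higher from B6 were 19, a split that went to 19 and 15 among 34 called with centred ratios. Their median ratio was -0.09, against -0.13 for tested autosomal genes. At least 2-fold differences were found in 8 of them, 7.92% against 7.83%. With centred ratios 33.7% of the 101 were called, against 26.8% of tested autosomal genes, and 55.9% of those calls were higher from Spret, against 49.5%.

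Among other small leucine-rich proteoglycans, 1 of 5 tested genes was called. Optc, the opticin gene known from the vitreous of the eye, read 38, 51 and 28 from B6 and 6, 9 and 6 from Spret. Its log2 ratio was -2.30 ± 0.31 (SE), called with a limma adjusted p = 4.71e-05. The ratio of Podn, in the same list, was 2.50. The list of lecticans and link proteins had 1 of 2 other tested genes called, Hapln2. Other chondroitin sulfate proteoglycans had 2 of 8 called, both higher from B6, the semaphorin receptor Nrp1 at -0.30 ± 0.06 and the testican Spock2 at -0.72 ± 0.09. Nrp1 lost its call with no filter (limma adjusted p = 0.0561), with no trend (0.136) and when alleles were not paired (0.261). Spock2 lost its call with no filter (limma adjusted p = 0.0609) and when alleles were not paired (0.110).

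In the list of tenascins and of ligands and receptors of proteoglycans, 6 of 19 other tested genes were called, 1 with more from Spret and 5 with more from B6. Midkine (Mdk) and pleiotrophin (Ptn), the soluble ligands of Ptprz1, leaned in opposite directions. Mdk read 318, 245 and 235 from B6 and 388, 287 and 343 from Spret, for a ratio of 0.35 ± 0.09 (SE, limma adjusted p = 0.00703). Ptn read 355, 242 and 376 from B6 and 279, 188 and 239 from Spret, for a ratio of -0.45 ± 0.09 (SE, limma adjusted p = 0.00156). Without library 1 or library 3 Mdk lost its call (limma adjusted p = 0.0583 and 0.0996). The difference between these ligands was not tested. Tnr, the tenascin of neurons and oligodendrocytes, leaned to B6 at -0.52 ± 0.13 (SE, limma adjusted p = 0.00624), opposite in sign to Tnc, and lost its call without library 2 (adjusted p = 0.0651). Ptprd, a receptor phosphatase of synapses, was at -0.37 ± 0.06, the fibronectin gene Fn1 at -1.16 ± 0.14 and the integrin subunit gene Itga8, whose product binds tenascin-C, at -1.78 ± 0.31, each called by limma. The calls of Mdk, Ptn, Tnr and Ptprd each ended with no filter, with no trend and when alleles were not paired. Their limma adjusted p then ran from 0.0816 to 0.442. Itga8 lost its call with no filter and with no trend (limma adjusted p = 0.140 and 0.0509). Ptn, Tnr, Fn1, Itga8 and Spock2 were picked after their values were seen.

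Heparan sulfate proteoglycans had 4 of 12 tested genes called, 1 higher from Spret and 3 higher from B6. The glypican genes split, with Gpc5 higher from Spret at 2.84 ± 0.44 (1, 3 and 10 from B6, 38, 18 and 43 from Spret) and Gpc2 higher from B6 at -0.43 ± 0.07. The ratio of Gpc5 was 2.12 without library 1 and 2.16 with a pseudocount of 4, and its call ended with no filter on low values (limma adjusted p = 0.123). Gpc2 lost its call with no trend (limma adjusted p = 0.0701) and when alleles were not paired (0.123). In the chain synthesis list 5 of 27 were called, 3 higher from Spret and 2 higher from B6. The sulfotransferase genes Chst11, at 0.30 ± 0.10, and Chst15, at -0.68 ± 0.12, which modify the same sugar at different positions, leaned in opposite directions. Chst11 lost its call without any 1 of the 3 libraries (limma adjusted p from 0.0608 to 0.211). Its call also ended with no filter (0.144), with no trend (0.148) and when alleles were not paired (0.324). Chst15 lost its call with no filter (0.0921). Among 12 genes of hyaluronan synthesis and turnover 4 were called, 1 higher from Spret and 3 higher from B6. The lysosomal hexosaminidase gene Hexa was at 2.42 ± 0.27 (8, 14 and 25 from B6, 79, 66 and 100 from Spret). Cemip2, a gene linked to hyaluronan breakdown, was at -0.40 ± 0.09. Cemip2 lost its call without library 1 (limma adjusted p = 0.0747), with no filter (0.139), with no trend (0.113) and when alleles were not paired (0.322). Hexa lost its call with no filter (limma adjusted p = 0.0561). Among 17 proteases that cleave proteoglycans and their inhibitors 5 were called, 2 higher from Spret and 3 higher from B6. The inhibitor genes Timp2, at 0.45 ± 0.09, and Timp3, at -0.33 ± 0.12, leaned in opposite directions. The call of Timp3 ended with centred ratios (limma adjusted p = 0.214), without library 1 (0.160) and without library 3 (0.284). It also ended with no filter (0.146), with no trend (0.126) and when alleles were not paired (0.633). Timp2 lost its call in these last settings too, with limma adjusted p = 0.0736, 0.0726 and 0.174.

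**Figure D5:**
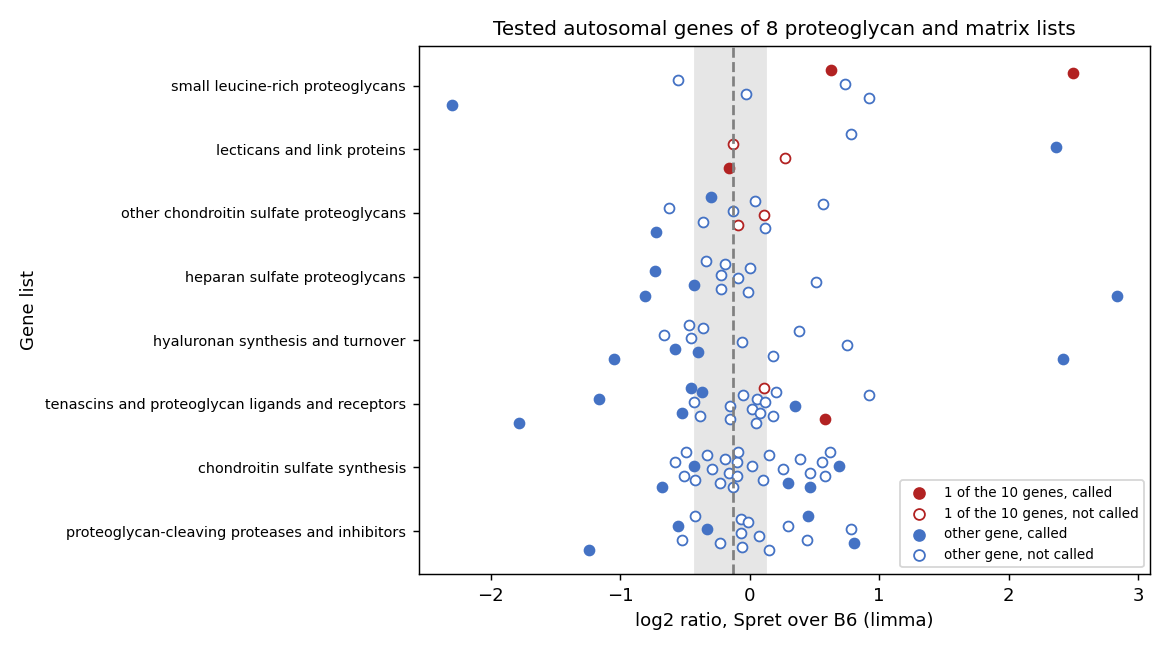
Log2 ratio of Spret over B6 for tested autosomal genes of 8 lists, 1 row per list, with the 10 genes in red, other genes in blue and called genes filled. The grey band spans the quartiles of tested autosomal genes. Podn at 2.50, Hapln2 at 2.37, Hexa at 2.42 and Gpc5 at 2.84 lie farthest to the Spret side and Optc at -2.30 farthest to the B6 side.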

How the data were processed

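Allele-specific expression in 3 day 12 organoid libraries was taken from 1 table with a B6 and a Spret column per library. Its unit is a score, since the deposited table's name calls them normalised allele-specific counts and the authors left them as whole numbers after scaling. Reads were placed on mm10, per the submitters' processing notes. Aligner, allele assignment, counting and use of strand are not given in the sources used here. A preference for the B6 reference in assignment could lower Spret values, and its size in each gene was not measured. Scale factors fitted to the whole numbers that occur were 1.156, 1.276 and 0.672, and the last merges read numbers, so count tests were not used.

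Ratios used a pseudocount of 1. Genes with a mean of at least 10 (15985) entered limma 3.58.1 (R 4.3.3), in a model of library plus allele with a variance trend. The pairing comes from the RNA, which holds both alleles. Tests were two-sided, with Benjamini-Hochberg adjustment over all tested genes and a threshold of 0.05, with 2 residual and 12.3 prior degrees of freedom. No pair of columns was identical. The fit was tested on simulated data. Positions are GENCODE M21 (GRCm38), and promoters RefSeq GRCm38.p6.

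The genes and lists were chosen with earlier results of these data known: small leucine-rich proteoglycans, lecticans and link proteins, other chondroitin and heparan sulfate proteoglycans, hyaluronan, ligands and receptors, chain synthesis, and proteases. Named were all 10 genes, lectican and link protein pairs, the Dcn cluster, in each list and direction the called gene with the highest sum, and nearest tested neighbours. Alternatives changed the pseudocount, filter, trend, pairing and centring, or left out a library. X-linked genes were left out of the lists and of the autosomal shares. The fit and its adjustment over 15985 genes held 438 X-linked and 5 Y-linked genes and 86 without a position.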

Additional observations from a re-analysis of the deposited data

How the results depend on the processing

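No called ratio changed sign under the alternatives run, neither among the 8 tested genes nor among 43 related and neighbouring genes. Ratios that were not called did so in 4 cases: Cspg5 went from -0.09 to 0.04 and Atp2b1 from -0.02 to 0.10 with centred ratios, and when a library was left out Atp2b1 ranged from -0.04 to 0.02 and Tmem268, at 0.08 with all 3, from -0.09 to 0.17, with the sign turned without library 1. The number of the 10 genes called was 4. It was 1 with no filter on low values (Tnc), 1 with no replicate block, which drops the pairing of alleles (Podn), and 2 in limma without trend (Podn and Tnc). It lay between 2 and 3 when 1 library was left out, lowest without library 3, with Podn and Tnc called each time. Over all tested genes, 4852 calls became 1236 with no filter, 1537 with no replicate block, 2229 without trend and 2667 to 4083 when a library was left out, at 2667 without library 1 and 3176 without library 3. Of the 101 related genes, 28 calls became 6, 10 and 12 in the same 3 settings and 18 to 29 when a library was left out, lowest without library 1. Of the 32 called genes among the 43, 26 lost their call with no filter, 21 with no replicate block, 19 without trend, 5 with centred ratios and 5 to 11 when a library was left out. Pseudocounts of 0.5 and 4 changed no call of the named genes. Depth limits Lum and Hapln1, which were too low to test, and the B6 allele of Podn.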
